A study of Mus musculus with 8 samples.

Results

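The genes described here are 10 inflammatory signalling genes measured in the livers of mice with and without AIM: the chemokines Ccl2, Ccl3, Ccl4, Ccl5, Ccl7, Cxcl1 and Cxcl2, the cytokines Tnf and Il1b, and the receptor Cd14. They were taken by gene name from the array annotation, 12 probes for 10 of the 28475 names on the array, and 8 of the 10 were among the 15335 genes that passed the filter on dim signal (marked above background by the scanner on 2 or more arrays). Groups were AIM-/- (knockout) mice on normal chow (0 weeks) or on high-fat diet (6, 12 or 20 weeks), and AIM+/+ (wild-type) mice on the same 4 regimens. All were on a C57Bl/6 background. Total liver RNA of each genotype and week was hybridised to 1 single-colour Agilent whole-genome array, 8 arrays in all. The labels give neither the age and sex of the mice, nor the design of the null allele, nor whether RNA of several animals was pooled.

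AIM is a protein secreted by tissue macrophages and is encoded by Cd5l. Chemokines are small secreted proteins that draw leukocytes along a concentration gradient. Ccl2 and Ccl7 bind the receptor CCR2 and bring monocytes out of the bone marrow and into tissue, Ccl3, Ccl4 and Ccl5 attract monocytes and T cells, and Cxcl1 and Cxcl2 act through CXCR2 on neutrophils. Tumour necrosis factor (Tnf) and interleukin-1 beta (Il1b) are cytokines that switch on the transcription factor NF-κB in their target cells, and Cd14 hands bacterial lipopolysaccharide to the receptor TLR4. In fatty liver these genes are known as products of resident macrophages (Kupffer cells), of monocyte-derived macrophages and of stressed hepatocytes.

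No genotype and week has a replicate, and all p-values measure the spread among these 8 arrays. Fits of week plus genotype drew their error from how the genotype difference varied from week to week. A genotype difference that changed over the weeks thus counted as error. Values at single weeks are 1 array against 1 and carry no test. Signals below are processed intensities scaled so that each array has the same 75th percentile (284 units), and a signal is called dim where the scanner software did not mark it as well above background. Of the 41174 probes, each array had from 18586 to 21119 that were not dim. Folds written as at least N-fold are against dim signal and are approximate, not strict lower limits. The targeted gene separated the genotypes: Cd5l signals were 90.9, 131, 173 and 128 in AIM-/- livers at 0, 6, 12 and 20 weeks, against 11792, 24250, 30606 and 21229 in AIM+/+ livers (log2 difference -7.35, SE 0.12, limma adjusted p = 0.000332). All AIM-/- arrays lay on 1 slide and all AIM+/+ arrays on another, so genotype and slide cannot be told apart. The arrays at 20 weeks stood apart from the other 6. The Y-linked gene Ddx3y had dim signals of 4.57 and 5.56 on the AIM-/- and AIM+/+ arrays at 20 weeks, against 1034 to 1684 and 1051 to 1163 on the earlier AIM-/- and AIM+/+ arrays. The female-expressed RNA Xist reached 764 and 805 at 20 weeks, was dim on 4 of the earlier arrays, and was above background beside the Y-linked signal on the AIM-/- array at 6 weeks (155) and the AIM+/+ array at 12 weeks (67.0). Diet results are therefore given with and without the 20-week arrays. Leaving these out keeps the AIM-/- array at 6 weeks and the AIM+/+ array at 12 weeks, which carried both signals. Sex can thus not be told apart from genotype or week of diet at 6 and 12 weeks either.

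The promoters of the members are shown to set Cxcl1, above background on all 8 arrays, and Cxcl2, dim on all 8, beside Ccl3 and Il1b. RefSeq (build GRCm38.p6) promoter sequences were at hand for 5 of the 10 members, namely Ccl3, Cxcl1, Cxcl2, Tnf and Il1b. The 250 bases before the start of transcription are printed 5′ to 3′ on the gene's strand, and capitals mark matches to the NF-κB consensus or to the letters TATAAA.

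Cxcl1, chr5:90890995-90891244, plus strand: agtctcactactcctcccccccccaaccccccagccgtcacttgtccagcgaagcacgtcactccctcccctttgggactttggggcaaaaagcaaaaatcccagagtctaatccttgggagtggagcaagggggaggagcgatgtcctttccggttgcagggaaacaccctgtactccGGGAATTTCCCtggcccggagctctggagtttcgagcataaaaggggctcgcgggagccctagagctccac
Cxcl2, chr5:90903649-90903898, plus strand: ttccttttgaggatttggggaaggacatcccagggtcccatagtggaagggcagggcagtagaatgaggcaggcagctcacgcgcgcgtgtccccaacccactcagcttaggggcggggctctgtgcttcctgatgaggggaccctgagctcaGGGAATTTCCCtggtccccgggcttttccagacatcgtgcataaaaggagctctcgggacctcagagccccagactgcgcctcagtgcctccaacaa
Ccl3, chr11:83649379-83649628, minus strand: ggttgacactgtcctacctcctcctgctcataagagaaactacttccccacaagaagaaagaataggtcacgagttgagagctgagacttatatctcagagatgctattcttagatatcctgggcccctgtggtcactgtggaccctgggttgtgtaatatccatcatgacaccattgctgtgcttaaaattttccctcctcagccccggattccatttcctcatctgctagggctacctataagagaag
Il1b, chr2:129371140-129371389, minus strand: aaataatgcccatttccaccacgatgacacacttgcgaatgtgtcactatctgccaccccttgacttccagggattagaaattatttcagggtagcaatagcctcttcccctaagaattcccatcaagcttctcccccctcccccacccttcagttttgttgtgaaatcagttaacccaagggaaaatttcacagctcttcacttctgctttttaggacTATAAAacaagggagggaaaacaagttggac

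Cxcl1 and Cxcl2 each held the NF-κB consensus, with the letters GGGAATTTCC starting at base -71 of Cxcl1 and base -97 of Cxcl2, counted back from the start of transcription. In both, the match on the opposite strand overlapped it by all but 1 base, which gives the run of capitals. Among 32851 mouse promoter windows of the same length, 7.25% held the consensus on either strand. TATAAA started at base -31 of Il1b and base -29 of Tnf (12.4% of all windows), and the AP-1 letters TGANTCA were in none of the 5 windows (6.75% of all windows). No NF-κB match was found in the windows of Ccl3, Tnf and Il1b. These matches describe letters and were not measured as binding.

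The members spanned a wide range of signal. Ccl2, Ccl5, Cxcl1, Il1b and Cd14 were well above background on 8 of 8 arrays, Ccl4 on 6, Ccl7 on 4 and Ccl3 on 2. Cxcl2 (4.45 to 7.06 units) and Tnf (6.86 to 18.1 units) were dim on every array, so no fold is given for them. Tnf was printed at 10 spots per array, and 0 of its 76 spots without an outlier mark were well above background. Signals of different probes are not compared as RNA levels.

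Several members are neighbours in the genome. On mm8, the build of the array files, the Ccl2 probe lies at chr11:81853343-81853402 (plus strand), 9.79 kb from the nearer of the Ccl7 probes (chr11:81863197-81863256 and chr11:81863349-81863408, plus strand). The Ccl3 probe (chr11:83464051-83464110, minus strand) and the Ccl4 probe (chr11:83480745-83480804, plus strand) are 16.6 kb apart, with the Ccl5 probes at chr11:83341989-83342048 and chr11:83342140-83342195 (minus strand). The Cxcl1 probe (chr5:91968019-91968078) and the Cxcl2 probe (chr5:91980708-91980767), both on the plus strand, are separated by 12.6 kb. The Il1b probe is at chr2:129056052-129056111, the Tnf probe at chr17:34807902-34807961 and the Cd14 probe at chr18:36851289-36851348, all on the minus strand. Whether a probe falls in a coding exon or a UTR was not looked up.

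High-fat diet was accompanied by higher Ccl2 signal, the only member whose difference over all diet weeks passed the threshold of an adjusted p under 0.05. Ccl4, Ccl5, Ccl3, Ccl7 and Cd14 had larger mean signals on diet too but did not pass over all diet weeks. The mean of the genotypes was highest at 12 weeks for each of these 6 genes, though for Ccl3 and Ccl7 the filter favoured the later weeks. At 12 weeks Ccl2 and Ccl4 passed. Il1b and Cxcl1 showed no common course over the weeks. The comparison asks how the diet moved these genes, taking the mean of 6, 12 and 20 weeks minus chow in a limma model with week and genotype.

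Ccl2, the main CCR2 ligand, had signals of 79.2, 268, 945 and 250 in AIM-/- livers at 0, 6, 12 and 20 weeks, against 47.9, 129, 546 and 425 in AIM+/+ livers. Each of the 6 diet arrays lay above both chow arrays, and the arrays at 12 weeks were the highest in each genotype. The diet arrays had a geometric mean of 352 units against 61.6 units on chow, a rise of 2.51 on the log2 scale (SE 0.38, 5.71-fold, higher in both genotypes, limma adjusted p = 0.0496). Across all tested genes 1.55% rose on the diet at the same threshold. By week, the difference from chow was 1.60 at 6 weeks, 3.54 at 12 weeks and 2.40 at 20 weeks (log2, SE 0.46 each), or 3.02-fold, 11.7-fold and 5.29-fold. Of these the difference at 12 weeks passed (adjusted p = 0.0370). The mean rise was 5.03-fold in AIM-/- livers and 6.49-fold in AIM+/+ livers. Ccl2 was printed at 10 spots per array, and the coefficient of variation between these spots was 2.80% to 28.6%, highest on the AIM+/+ chow array.

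The Ccl2 call stood at the edge of the threshold. Without the 20-week arrays the rise was 2.57 (log2, adjusted p = 0.0861), and leaving out any 1 array, or both arrays of any week, gave adjusted p from 0.0510 to 0.208. At 12 weeks alone 2 of the 8 tested members passed, Ccl2 and Ccl4, against 4.09% of all genes higher at that week, a test chosen after its result was seen. Neither passed there when both 6-week arrays were left out (lowest member adjusted p = 0.0581) or when any 1 chow or 12-week array was. At 6 weeks 0 members passed (limma, 1 at an unadjusted p under 0.05; 0.0% of genes higher), and at 20 weeks 0 (5 unadjusted; 1.19% of genes higher). Only 1 of the 8 tested members had every diet array above both chow arrays, a pattern that 10.4% of all genes showed.

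Ccl7, the other CCR2 ligand, was dim on the chow and 6-week arrays of both genotypes. Its brighter probe gave 15.6, 21.4, 43.7 and 23.1 in AIM-/- livers at 0, 6, 12 and 20 weeks, against 17.9, 14.4, 41.5 and 33.6 in AIM+/+ livers. It was thus above background only at 12 and 20 weeks, where the diet arrays had to exceed chow for it to pass the filter. At 12 weeks it was at least 1.40-fold higher than on chow by this probe, and at least 1.70-fold by the other probe. The difference over all diet weeks had adjusted p = 0.146.

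Ccl4, an attractant of monocytes and T cells, followed the shape of Ccl2. Its signals were 40.8, 106, 497 and 119 in AIM-/- livers, against 15.8, 29.0, 237 and 183 in AIM+/+ livers, the AIM+/+ values at 0 and 6 weeks being dim. The diet difference was 2.47 on the log2 scale (SE 0.49, adjusted p = 0.0697), and 3.76 at 12 weeks (SE 0.60, adjusted p = 0.0419), sizes and a call that rest partly on background. In AIM-/- livers, where all 4 arrays were above background, Ccl4 was 12.2-fold higher at 12 weeks than on chow. In AIM+/+ livers it was at least 8.46-fold higher at 12 weeks and at least 6.53-fold higher at 20 weeks.

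Ccl3, a macrophage chemokine, was above background only at 12 weeks, with 77.7 in the AIM-/- liver and 44.0 in the AIM+/+ liver. Its other signals ran from 10.9 to 21.3 in AIM-/- livers and from 7.16 to 34.8 in AIM+/+ livers, all dim. The 12-week arrays were at least 1.92-fold above chow, and the diet difference had adjusted p = 0.136. Since Ccl3 passed the filter through the 12-week arrays alone, that week had to stand out.

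Ccl5, a product of T and NK cells as well as macrophages, was bright throughout. Its brighter probe gave 841, 630, 3527 and 1746 in AIM-/- livers, against 396, 614, 1084 and 1494 in AIM+/+ livers. The AIM-/- array at 12 weeks stood above all others, and neither genotype's 6-week array exceeded the AIM-/- chow array. The diet difference was 1.12 (log2, SE 0.36, adjusted p = 0.146), with 1.76 at 12 weeks and 1.48 at 20 weeks (SE 0.44 each). The other Ccl5 probe ordered the 8 arrays identically, with 971 units on the highest.

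Cd14 signals were 174, 287, 1063 and 436 in AIM-/- livers and 243, 226, 714 and 939 in AIM+/+ livers. They were highest at 12 weeks in AIM-/- livers and at 20 weeks in AIM+/+ livers. The diet difference was 1.34 (log2, SE 0.36, adjusted p = 0.109). At 6 weeks the AIM+/+ array was slightly below its chow array.

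Cxcl1, a neutrophil attractant, had unlike courses in the genotypes, 1 array each. Its signals were 443, 148, 355 and 399 in AIM-/- livers, against 122, 545, 218 and 348 in AIM+/+ livers. The AIM-/- array was lowest at 6 weeks, where the AIM+/+ array was highest. The diet difference was 0.41 (log2, SE 0.70, adjusted p = 0.739), and its SE was the largest among the tested members.

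Il1b, the cytokine released by inflammasome-activated cells, gave 77.1, 166, 223 and 163 in AIM-/- livers, against 301, 178, 236 and 578 in AIM+/+ livers. All 3 AIM-/- diet arrays lay above the AIM-/- chow array, while in AIM+/+ livers only the 20-week array lay above chow. The diet difference was 0.59 (log2, SE 0.47, adjusted p = 0.472). Its 7 to 10 spots per array varied with a coefficient of 3.33% to 6.76%, a spread within the array only.

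Without the 20-week arrays the diet differences (log2) were 2.44 for Ccl4, 1.19 for Cd14, 0.93 for Ccl5, 0.38 for Il1b and 0.27 for Cxcl1, with adjusted p from 0.0861 for Ccl4 to 0.878 for Cxcl1, and no member passed. Unadjusted p for a higher level on diet was under 0.05 for 6 of the 8 tested members, against 14.1% of all genes, with the reservation for Ccl3 and Ccl7 that the filter favoured them. A test for a change at any week (limma F test) passed no member, the lowest adjusted p being 0.0841 for Ccl2, while 0.926% of all genes passed. There 6 members, Ccl3 and Ccl7 among them, had an unadjusted p under 0.05, against 24.5% of all genes. The highest signal was on the AIM-/- array at 12 weeks for Ccl2, Ccl3, Ccl4, Ccl5, Ccl7 and Cd14, that is 6 of 8, against 15.3% of all genes; the filter favoured that array for Ccl3 and Ccl7, so nothing is read from the count.

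**Figure D1:**
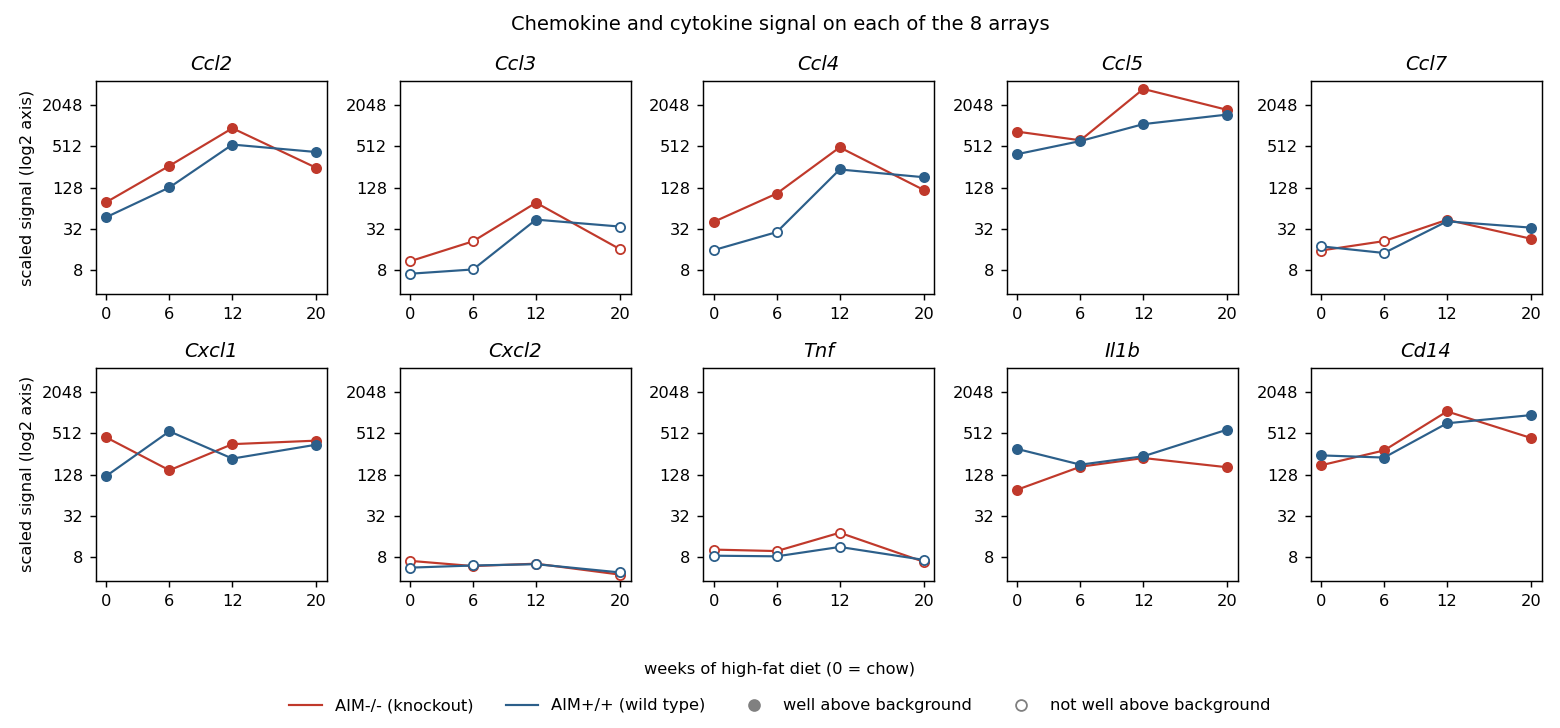
Scaled signal (log2 axis) of the 10 genes against weeks of diet, one point per array, AIM-/- in red and AIM+/+ in blue; open points were not well above background. Ccl2, Ccl3, Ccl4 and Ccl7 peaked at 12 weeks in both genotypes, whereas Cxcl2 and Tnf stayed dim on all 8 arrays.

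**Figure D2:**
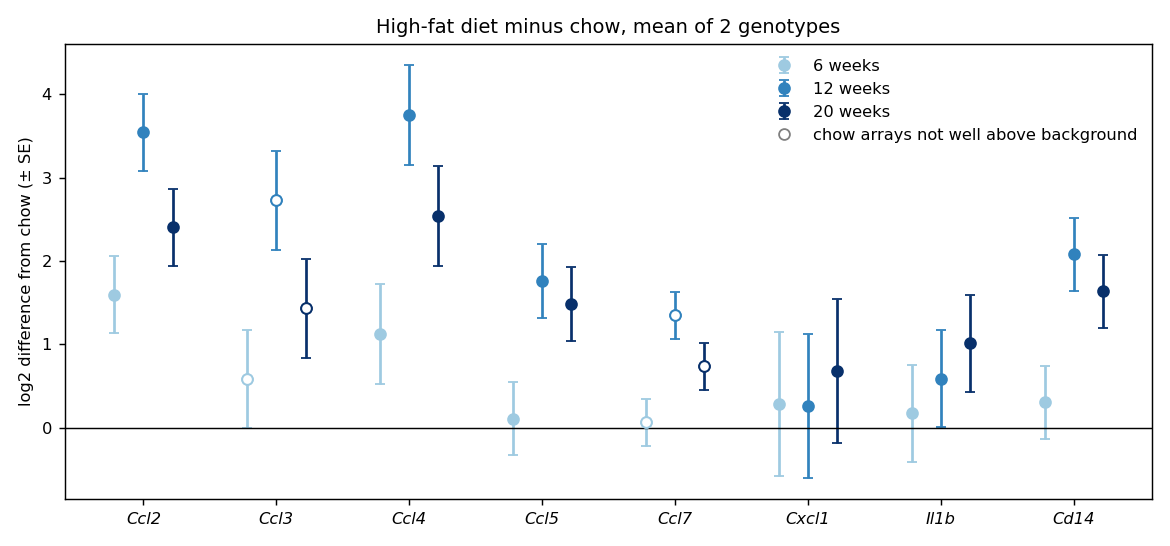
Difference from chow at 6, 12 and 20 weeks (log2, mean of 2 genotypes, bars ± SE of the limma fit) for the 8 tested genes; open points mark genes dim on both chow arrays, whose sizes rest on background. Ccl4 and Ccl2 reached 3.76 and 3.54 at 12 weeks, while the bars of Cxcl1 crossed 0 at every week. The points of Ccl4 are filled, but it was dim on the AIM+/+ chow array, so its sizes rest partly on background.

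Marker genes of other cells moved over the same arrays. The tissue was checked on albumin (Alb), the secretory product of hepatocytes, which ran from 320730 to 365518 units in AIM-/- livers and from 345090 to 438216 in AIM+/+ livers. Of the 9 hepatocyte markers tested, only 1 had a diet difference above 0 (median log2 -0.25, all genes -0.02). Ass1 passed as lower on diet (limma, 359 of 15335 genes passed in either direction, 237 of them higher). Its signals were 186980, 81291, 56172 and 123796 in AIM-/- livers, against 174000, 92886, 67595 and 103127 in AIM+/+ livers. Markers of recruited and lipid-associated macrophages (9 genes) summed to 4792, 6317, 42470 and 12891 in AIM-/- livers at 0, 6, 12 and 20 weeks, against 3802, 3652, 18831 and 19287 in AIM+/+ livers. At 12 and 20 weeks Spp1, a secreted phosphoprotein also made by bile duct cells, made up the larger part of these sums. In AIM-/- livers the sums follow the order of 12 weeks above 20 weeks seen for Ccl2. In AIM+/+ livers the recruited macrophage sum was slightly lower at 12 than at 20 weeks, whereas Ccl2 was higher at 12 weeks (546 against 425). In that list Spp1 rose on the diet (log2 3.52, SE 0.47, adjusted p = 0.0466), and so did Ccr2 (adjusted p = 0.0389), 2 of 9. Ccr2 was dim on the chow and 6-week arrays, with 9.05, 20.6, 81.5 and 32.1 units in AIM-/- livers against 6.97, 10.7, 72.4 and 37.4 in AIM+/+ livers, so that the filter favoured it and its size rests on background. Their part in the chemokine results was not tested, and in bulk liver fewer cells of a type and less RNA per cell cannot be told apart. Of the Kupffer cell and macrophage list 0 of 13 genes passed, and 10 had a diet difference above 0 (limma, median log2 0.45, all genes -0.02). Cd68 (0.96, SE 0.18, adjusted p = 0.0656) and C1qb (0.66, SE 0.13, adjusted p = 0.0693) had the largest differences. Sums ran from 25120 to 32969 in AIM-/- livers and from 23028 to 35608 in AIM+/+ livers. Timd4 and Marco, also in this list, fell in AIM-/- livers from 209 to 42.6 and from 3534 to 809 between 0 and 20 weeks. Vsig4 (655 to 380), Cd163 (488 to 125) and Clec1b (1735 to 1529) fell there too. The other genes of the list rose, among them Clec4f (7377 to 8107) and Folr2 (647 to 1082). In AIM+/+ livers Timd4 went from 185 to 168 and Marco from 3467 to 3301, while the other genes of the list rose. Neutrophil markers (6 tested of 10, none passing) summed to 667 to 1842 in AIM-/- livers and 1821 to 4656 in AIM+/+ livers, mostly through S100a9. T and NK cell markers (8 tested of 14, none passing) summed to 655, 680, 1297 and 849 in AIM-/- livers, against 527, 636, 780 and 867 in AIM+/+ livers, with the AIM-/- array at 12 weeks highest, as it was for Ccl5.

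**Figure D3:**
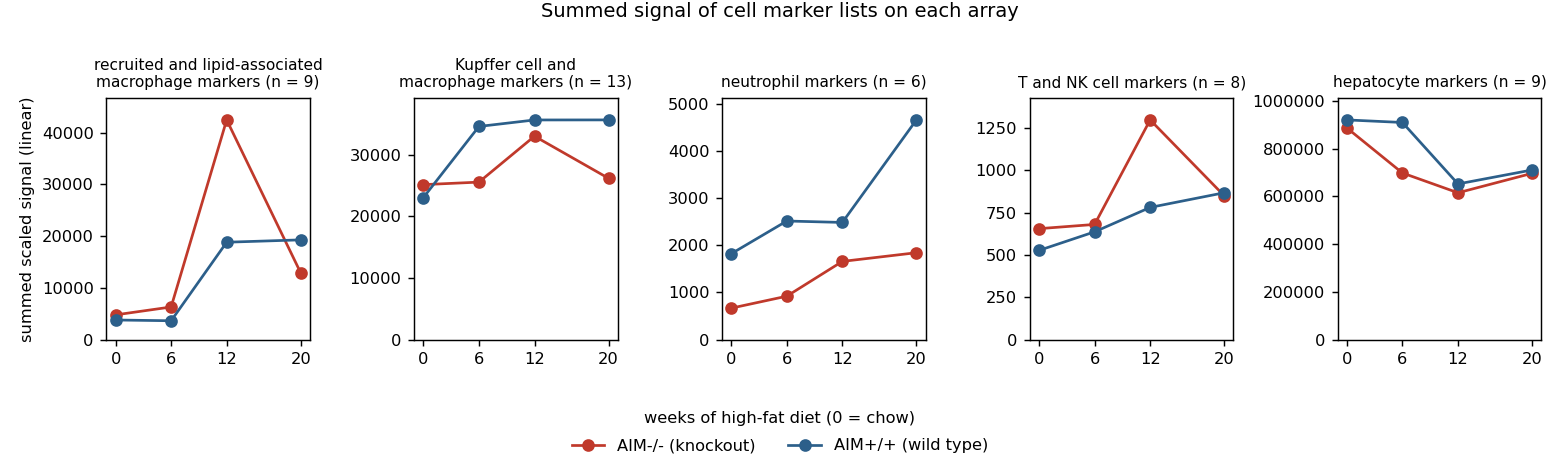
Summed scaled signal (linear axis from 0) of 5 marker lists against weeks of diet, AIM-/- in red and AIM+/+ in blue, n being the genes tested in each list. The recruited macrophage sum reached 42470 units on the AIM-/- array at 12 weeks, against 18831 in AIM+/+.

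Other genes of the same pathways were counted on the diet contrast, for which 1.55% of all genes rose. Of 17 other chemokines tested, Ccl19, which guides lymphocytes and dendritic cells, and Pf4, a platelet and megakaryocyte chemokine, rose on the diet by 1.26 (SE 0.18) and 0.96 (SE 0.13) on the log2 scale (adjusted p = 0.0491 and 0.0460); the list's median was 0.76. Of 11 chemokine receptors tested, only Ccr2 passed, with the limit of dim chow signals given above, and Ccr1 and Cxcr2 were among the receptor genes that did not pass the filter. Among 10 other cytokines 0 passed; Il1rn, the natural antagonist of the Il1b receptor, had signals of 82.8, 103, 319 and 169 in AIM-/- livers against 15.9, 66.4, 273 and 281 in AIM+/+ livers (diet 2.26, SE 0.59, adjusted p = 0.104, the AIM+/+ chow array dim), and Csf1, a macrophage growth factor, had 0.84 (SE 0.13, adjusted p = 0.0518). Of 10 genes of TNF and IL-1 receptor signalling 0 passed, and the TNF receptor gene Tnfrsf1b had the largest difference (0.67, SE 0.16, adjusted p = 0.0868), followed by Il1rap, the IL-1 receptor accessory protein (-0.60, SE 0.14, adjusted p = 0.0904). Of 14 genes of the TLR4 pathway 0 passed, and Tlr2 had the largest difference (1.23, SE 0.25, adjusted p = 0.0738); Irak3, an inhibitor of the pathway, had adjusted p = 0.0780 and was dim on both chow arrays. Of 15 NF-κB genes 1 passed, and 9 had a diet difference above 0. The gene that passed was Ikbkg, the regulatory subunit of the IκB kinase complex, which fell by 0.81 on the log2 scale (SE 0.12, adjusted p = 0.0491). Of all 15335 genes 359 passed on the diet contrast in either direction, 237 of them higher. Of 20 immediate early genes 0 passed, with Atf3 at 2.79 (SE 0.89, adjusted p = 0.144) and Egr2, dim on both chow arrays, at adjusted p = 0.134.

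No member passed the test of AIM-/- against AIM+/+ livers across the weeks. Ccl4 and Ccl5 had the largest positive differences and Il1b the largest negative one, and each depended on the week. Such dependence counted as error in this test, so the lack of calls does not show that the genotypes were alike. The comparison asks whether AIM-/- livers differ from AIM+/+ livers at matched weeks of diet. In the limma fit the difference was 0.92 for Ccl4 (log2, SE 0.42), 0.76 for Ccl5 (SE 0.31), 0.45 for Ccl2 (SE 0.33), 0.42 for Ccl3 (SE 0.42), 0.22 for Cxcl1 (SE 0.61), -0.02 for Ccl7 (SE 0.20), -0.17 for Cd14 (SE 0.31) and -0.99 for Il1b (SE 0.41), with adjusted p of 0.918 or more. None of the 8 had an unadjusted p under 0.05. Without the 20-week arrays the differences were 1.44 for Ccl4, 0.94 for Ccl5, 0.86 for Ccl2, 0.15 for Cd14 and -0.72 for Il1b, and again no member passed. Across all genes 5 passed (0.0326%), with 857 at an unadjusted p under 0.05.

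Il1b was lower in AIM-/- than in AIM+/+ livers at each of the 4 weeks, by 3.91-fold on chow, 1.07-fold at 6 weeks, 1.06-fold at 12 weeks and 3.54-fold at 20 weeks. The difference therefore lay at 0 and 20 weeks. Neutrophil marker sums, mostly S100a9, were lower in AIM-/- livers at each week (667, 921, 1658 and 1842 against 1821, 2514, 2484 and 4656). They were thus lower at 6 and 12 weeks too, where Il1b hardly differed. Of the 6 markers 1, 1, 2 and 0 were higher in AIM-/- livers at 0, 6, 12 and 20 weeks, dim signals included. The part of these markers in the Il1b values was not tested.

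Members at least 2-fold apart at a single week, and not dim on both arrays, differed in identity from week to week. On chow, 3 of 6 members were higher in AIM-/- livers, against 3.15% of all genes: Cxcl1 by 3.62-fold, Ccl5 by 2.12-fold, and Ccl4 only by its ratio to a dim AIM+/+ signal, which supports at least 1.46-fold. In the same arrays 1 was lower, Il1b, against 4.7%. At 6 weeks Ccl4 (at least 3.53-fold) and Ccl2 (2.07-fold) were higher in AIM-/- livers, against 3.28% of genes, and Cxcl1 was 3.70-fold lower, against 3.76%. At 12 weeks Ccl5 (3.25-fold) and Ccl4 (2.10-fold) were higher, against 2.73% of genes, and 0 of 8 were lower, against 2.17%. The other Ccl5 probe gave 3.33-fold, while the Ccl7 probes gave 1.05-fold and 1.86-fold. At 20 weeks 0 of 7 were at least 2-fold higher in AIM-/- livers, against 2.05% of genes, and Il1b (3.54-fold) and Cd14 (2.15-fold) were lower, against 2.23%. Each of these is 1 array against 1.

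Ccl2 and Ccl4 were higher in AIM-/- than in AIM+/+ livers at 0, 6 and 12 weeks and lower at 20 weeks, a sign pattern held by 6.11% of all genes. Ccl2 differed by 0.73, 1.05, 0.79 and -0.77 (log2) at 0, 6, 12 and 20 weeks, and Ccl4 by 1.37, 1.87, 1.07 and -0.62, with the AIM+/+ array dim at 0 and 6 weeks. Ccl3 was above background at 12 weeks alone, where it differed by 0.82; its other signals ran the same way but were dim in both genotypes, so no direction was measured there. The test of this turn, the difference at 20 weeks minus the mean difference at the other weeks, was made with the pattern already known and left 2 residual degrees of freedom. It gave -1.62 for Ccl2 (log2, SE 0.27) and -2.05 for Ccl4 (SE 0.40, resting partly on background). Both had an unadjusted p under 0.05 and a lower value at 20 weeks, as did the mostly dim Ccl3, against 1.94% of all genes. Since the pattern was already known, nothing is read from these shares, and limma passed 0 genes after adjustment (0.0%, 510 unadjusted), and adjusted p was 0.9998 for each member. The 20-week arrays are also those without Y-linked signal, so that sex and week of diet cannot be told apart there.

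Most other lists shifted at 20 weeks in the same direction, so the turn was not particular to chemokines. Median log2 shifts, dim signals included, were -1.74 for immediate early genes, -1.40 for recruited macrophage markers and -1.10 for bile duct cell markers. They were -0.71 for chemokine receptors, -0.61 for other chemokines and -0.46 for the Kupffer cell and macrophage list. T and NK cell markers had -0.42 and stellate cell and fibroblast markers -0.26. Not all did. For the 20-week difference minus that of the other weeks, hepatocyte markers had a median log2 of 0.38 (8 of 9 above 0, all genes 0.06). The TNF and IL-1 receptor list and the TLR4 list had medians of -0.01 and -0.03. Recruited macrophage markers were higher in AIM-/- livers for 8, 8 and 9 of 9 genes at 0, 6 and 12 weeks and for 0 of 9 at 20 weeks (median log2 0.35, 0.94, 0.72 and -0.56, dim signals included). Itgax, an integrin of inflammatory macrophages, had 61.2, 93.4, 550 and 161 units in AIM-/- livers, against 24.8, 40.8, 278 and 295 in AIM+/+ livers. Immediate early genes were higher in AIM-/- livers for 9, 15, 17 and 1 of 20 genes (median -0.16, 0.55, 0.42 and -1.43), the AIM+/+ array at 20 weeks holding 5941 units of Egr1 against 954 in AIM-/-. Their part in the chemokine values was not tested.

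Whether the diet acted differently by genotype was tested as diet minus chow in AIM-/- livers less that in AIM+/+ livers. No member and no gene passed (limma, 0.0% of genes, 680 at an unadjusted p under 0.05, none of them a member). This fit had no term for week, so changes between the diet weeks counted as error. The SE for Ccl2 was 1.48, against 0.38 in the diet comparison. The lack of calls therefore does not show that the diet acted alike in both genotypes. Cxcl1 had the largest member value at -2.19 (log2, SE 0.995): its diet arrays averaged below chow in AIM-/- livers and above chow in AIM+/+ livers. Il1b had 1.30 (SE 0.90), in the opposite direction. The lone chow array of each genotype carries these values, and it was assumed to vary like the others.

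**Figure D4:**
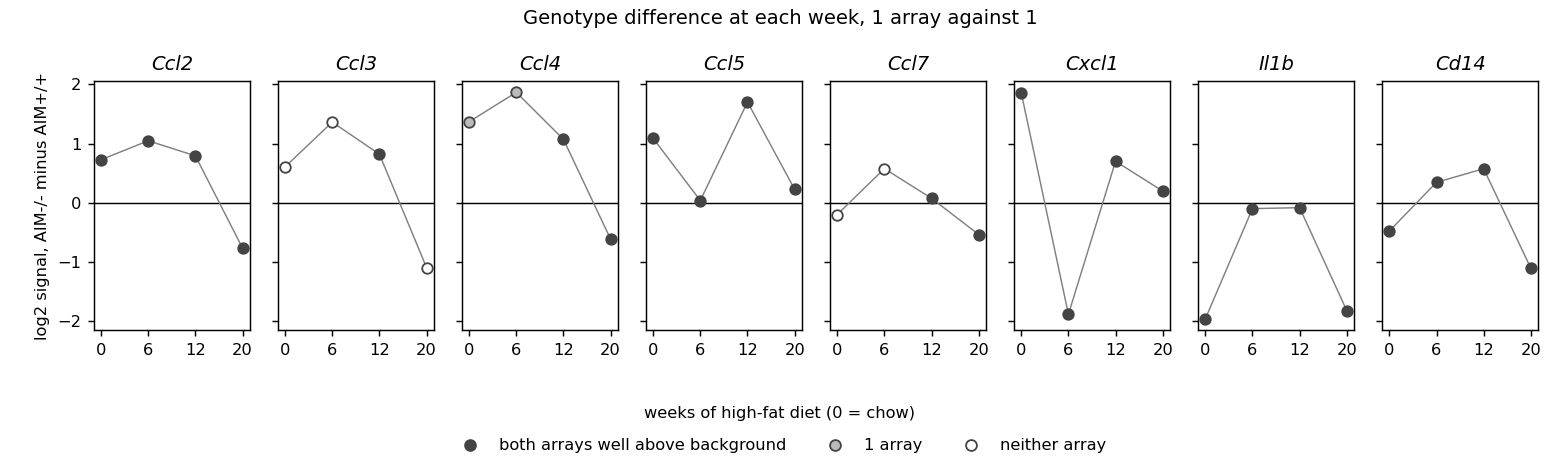
AIM-/- minus AIM+/+ signal (log2) at each week for the 8 tested genes, 1 array against 1, shaded by how many of the 2 arrays were well above background. Ccl2 and Ccl4 lie above 0 at 0, 6 and 12 weeks and below 0 at 20 weeks, and Cxcl1 lies at 1.86 on chow and at -1.89 at 6 weeks.

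Genes whose signal followed a member most closely were ranked by Pearson r over the 8 arrays among 9546 named genes above background on all arrays. The arrays share diet, genotype and slide, so that r describes these 8 points only. The closest to Ccl2 were Dab2ip (0.991), a RAS GTPase-activating protein, and Ubd (0.989), a ubiquitin-like modifier induced by cytokines. Ccl3, mostly dim, was nearest to Relb (0.996), an NF-κB subunit, and Fchsd1 (0.993), and Ccl4 to Atp6v0e (0.998), a subunit of the vacuolar proton pump, and Phldb1 (0.995). Cd14 was nearest to Sfxn3 (0.992) and Tagln2 (0.984), and Ccl7 to Sh3tc1 (0.987) and Srgn (0.981), the proteoglycan of leukocyte granules. Ccl5 was nearest to Tm4sf4 (0.975) and Dlgap4 (0.974). Cxcl1 (Efhd2 and Stk35, both 0.94) and Il1b (Pot1a 0.935, Rap1gap 0.896) had no gene above 0.95, against 53 to 71 genes for Ccl2, Ccl3, Ccl4, Ccl7 and Cd14 and 12 for Ccl5.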

How the data were processed

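Liver RNA of 8 genotype and diet groups was read on 8 one-colour arrays (design 014868), 1 per group, grouped by the labels' genotype and diet. The deposited scanner files hold the authors' processed signal intensity of each spot, background-subtracted, made with Feature Extraction 9.5.3.1 per the file headers (9.5 per the submitters' processing notes). The deposited value table holds log2 values; its columns differed by a median of 0.000386 to 0.00213 from the log2 processed signal minus each array's 75th percentile, and it served as an alternative.

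Values exclude 1639 control spots and, on each array, 75 to 130 outlier spots. The remaining spots were averaged by probe and scaled on the 75th percentile before taking log2. Probes well above background on at least 2 arrays were kept, and the brightest probe stood for a gene, leaving 15335 genes. Names of 24496 probes came through RefSeq and of 16678 from the files. A group dim on every array has only an approximate bound. Folds against it use the array's dimmest signal that carried the mark, or the dim signal itself where higher. They are written as at least N-fold. A dim signal can lie above that level, as Ccl3 did on the AIM+/+ array at 20 weeks (34.8 against 23.3). These folds are therefore no strict lower limits. limma 3.58.1 (R 4.3.3) was fitted across all genes, with 3 residual degrees of freedom for week plus genotype, 4 for genotype by diet and 2 for genotype by 20 weeks, and Benjamini-Hochberg adjusted p under 0.05 as threshold. The fits were tested on simulated data. Nothing in the labels says how many animals lie behind an array, so precision is limited by the number of arrays.

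The members, the gene lists and the test at 20 weeks were chosen with earlier results of these data known. All members were named; from each list of pathway genes and of macrophage markers, genes past the threshold for diet (at most 4) or else the 2 with the largest differences were named, and for likeness the 2 genes with the highest r. Itgax, Egr1, S100a9, Alb, Ass1, Timd4, Marco, Vsig4, Cd163, Clec1b, Clec4f, Folr2 and the sex-linked genes were named to describe their lists. Alternatives were the filter, normexp background with an offset of 50, quantile or median scaling, the deposited table, the mean of probes, the variance setting and leaving out arrays. Slide as a block could not be fitted for genotype, since each slide held 1 genotype.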

Additional observations from a re-analysis of the deposited data

How the results depend on the processing

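No paired analysis was possible because every group has 1 array and the only replicate number is 1, so that no block by replicate number exists; the fit of week plus genotype itself matches the genotypes by week. Ccl2's diet rise stayed positive under all 20 alternatives (log2 1.69 to 2.97, adjusted p 0.0194 to 0.208) and passed under 4 of them. The number of members passing for diet was 0 with no filter on dim probes, quantile normalization, median scaling, the mean of probes or robust variances, 2 (Ccl2 and Ccl4) with an intensity trend, and 0 to 0 when arrays were left out. Over all genes the diet passed 359, against 27 with no filter, 905 with a filter at all 8 arrays, 692 with normexp background, 234 with quantile normalization, 1045 with the intensity trend, and 0 to 523 when arrays were left out. At 12 weeks against chow, alternatives added after seeing the data, 937 genes passed, against 76 with no filter, 1472 with a filter at all 8 arrays, 1708 with the trend and 0 to 275 when arrays were left out; members passing were 2, against 0 with no filter, 4 with normexp, 4 with the trend and 0 to 3 when arrays were left out. The any-week test passed 142 genes, against 7 with no filter, 640 with a filter at all 8 arrays, 551 with normexp, 651 with the trend and 0 to 148 when arrays were left out; members passing were 0, against 1 with the filter at all 8 arrays, 2 with normexp and 2 with the trend. Genotype passed 5 genes, against 3 with the filter at all 8 arrays and 1 to 1 when arrays were left out; no member passed under any alternative run. Genotype by diet passed 0 genes, against 111 with no filter and 0 to 3 when arrays were left out. Members at least 2-fold higher in AIM-/- livers were 3 on chow, 2 at 6 weeks and 2 at 12 weeks; normexp gave 1, 0 and 1, and the filter at all 8 arrays gave 1 at 6 and 1 at 12 weeks. The cause of these changes was not tested, except that a filter at all 8 arrays keeps 5 of the members. In the genotype contrast Ccl7, Cd14 and Cxcl1 changed sign under 9, 3 and 3 alternatives. Dim signal limits Ccl3, Ccl7 and Ccl4, and precludes a fold for Cxcl2 and Tnf.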
